A study of Mus musculus with 4 samples.

Results

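The HRD1 complex is the ubiquitin ligase assembly of the endoplasmic reticulum (ER) membrane, and 10 of the 19074 genes listed in the deposited tables were taken as its members by name. They are Sel1l, Syvn1, Os9, Erlec1, Derl1, Derl2, Derl3, Herpud1, Ube2j1 and Fam8a1, and all 10 had a row in each of the 4 tables. The tables hold counts of unique molecular identifiers (UMIs, tags that count each captured RNA molecule once) per cell from pancreatic islets of C57BL/6 mice, captured by the 3′ assay of 10x Genomics. Islets had recovered overnight in RPMI medium, per the labels, and were dissociated with trypsin. The series asks whether ER-associated degradation by SEL1L and HRD1 is needed for beta cells to keep their identity and function.

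The 2 wild type libraries came from Sel1Lf/f mice, which carry floxed alleles and no stated Cre, and the 2 knockout libraries from Sel1LIns1 mice, in which Cre recombinase is driven by the beta cell insulin gene Ins1. All 4 libraries share the strain C57BL/6. The age of the mice is 7 weeks in the labels of the samples but 5 weeks in the text of the series. Mice with Ins1-Cre and unfloxed Sel1L are not among the samples, so what the Cre does and what the deletion does cannot be told apart. Whether each library is a separate animal or a pool is not given in the sources used here. Every p-value for knockout against wild type within a class sets a difference against the spread between libraries, which may be technical. Comparisons between classes keep each library as a block, so their p-values rest on the spread left after differences between libraries are removed. The deleted exons are not given either, and a count at the 3′ end of the transcript is no check of the deletion.

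Cells were classed by hormone share of their UMIs, as beta cells (Ins1 plus Ins2 at 10% or more), alpha cells (Gcg at 3% or more) and delta cells (Sst at 3% or more), alpha and delta cells with insulin under 5%. This gave 3533, 3473, 2381 and 1365 beta cells in wild type 1, wild type 2, knockout 1 and knockout 2, an order kept for all values below. Alpha cells numbered 1116, 939, 761 and 330, and delta cells 450, 526, 308 and 229. Totals per library ran from 99156230 to 228515309 UMIs, doublet removal took 49 to 283 cells a library, and any pair of libraries shared 1 to 9 cell barcodes. Beta markers other than insulin (Iapp, Mafa, Pdx1, Nkx6-1, Slc2a2, G6pc2, Ucn3) were all 7 higher in wild type beta than in wild type alpha and delta cells, and all 7 were lower in knockout than in wild type beta cells. Insulin took 67.5% and 68.3% of the UMIs of wild type beta cells but 40.9% and 44.6% of those of knockout beta cells, so levels are given as UMIs per 1000000 UMIs outside the hormone genes Ins1, Ins2, Gcg, Sst, Ppy, Pyy and Iapp, written CPM below. The median mitochondrial share of a cell's UMIs moved with the genotype, at 1.75%, 1.71%, 3.65% and 3.57% in beta cells, 2.48%, 2.47%, 3.73% and 3.74% in alpha cells and 2.67%, 2.56%, 3.73% and 3.73% in delta cells, and its part in the changes below was not tested. The delta class was not pure by hormone: Ppy reached 3% in 353, 370, 238 and 175 of its cells and exceeded Sst in 89, 61, 83 and 38.

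As background, the complex marks proteins that fail to fold in the ER for destruction by the proteasome, and misfolded proinsulin is among its known substrates. SYVN1 is HRD1, the ligase, and SEL1L is the adaptor that holds it to its substrate receptors. OS9 and ERLEC1 are lectins that read trimmed sugars on substrates, and the derlins help move substrates through the membrane. HERPUD1 and FAM8A1 bind HRD1 and help the complex assemble. UBE2J1 is a membrane-anchored ubiquitin-conjugating enzyme that works with the ligase. Several of these genes are textbook targets of the unfolded protein response, whose factors ATF6 and XBP1 bind ER stress elements in promoters.

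Promoter windows are shown for the 4 members in which a stress response motif was found: Derl3, Herpud1, Syvn1 and Ube2j1. The windows, from RefSeq on GRCm38.p6, run from 250 bases before to 50 bases after the transcript start, and 8 of the 10 members matched. Erlec1 and Derl1 had no entry. Both strands were searched for the ER stress element (ERSE: CCAAT, 9 bases, CCACG), for ERSE-II (ATTGG, any base, CCACG), for the core of the unfolded protein response element (UPRE: TGACGTGG) and for the amino acid response core TGATGNAA. Capitals mark the matches, and Sel1l, the gene deleted in the knockout mice, is shown as a window without a match.
Derl3: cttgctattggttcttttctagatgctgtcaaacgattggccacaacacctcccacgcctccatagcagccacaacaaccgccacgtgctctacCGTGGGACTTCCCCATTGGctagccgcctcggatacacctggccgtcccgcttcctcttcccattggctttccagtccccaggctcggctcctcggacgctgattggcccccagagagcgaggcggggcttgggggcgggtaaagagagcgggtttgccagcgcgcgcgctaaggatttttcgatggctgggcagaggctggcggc
Syvn1: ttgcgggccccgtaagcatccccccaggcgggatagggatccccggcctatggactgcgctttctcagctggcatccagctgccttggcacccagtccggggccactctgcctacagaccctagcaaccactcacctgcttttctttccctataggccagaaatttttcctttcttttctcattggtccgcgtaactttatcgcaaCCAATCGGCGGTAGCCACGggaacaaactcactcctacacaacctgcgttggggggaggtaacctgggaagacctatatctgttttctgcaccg
Herpud1: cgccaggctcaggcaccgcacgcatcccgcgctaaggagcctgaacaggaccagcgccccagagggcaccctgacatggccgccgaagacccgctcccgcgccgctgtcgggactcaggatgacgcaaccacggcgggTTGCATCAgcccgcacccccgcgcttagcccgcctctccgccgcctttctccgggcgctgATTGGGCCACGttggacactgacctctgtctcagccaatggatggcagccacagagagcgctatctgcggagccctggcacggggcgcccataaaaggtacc
Ube2j1: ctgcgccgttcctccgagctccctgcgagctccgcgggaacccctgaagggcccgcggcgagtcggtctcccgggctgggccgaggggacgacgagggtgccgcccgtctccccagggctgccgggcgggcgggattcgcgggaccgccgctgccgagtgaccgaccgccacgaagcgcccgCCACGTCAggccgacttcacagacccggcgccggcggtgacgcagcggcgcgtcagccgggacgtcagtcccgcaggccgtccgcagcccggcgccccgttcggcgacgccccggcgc
Sel1l: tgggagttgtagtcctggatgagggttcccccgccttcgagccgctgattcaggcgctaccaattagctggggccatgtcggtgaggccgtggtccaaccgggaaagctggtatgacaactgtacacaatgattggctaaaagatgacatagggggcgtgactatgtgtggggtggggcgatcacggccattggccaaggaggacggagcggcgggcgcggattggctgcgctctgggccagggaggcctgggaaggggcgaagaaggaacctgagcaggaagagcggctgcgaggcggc
The Derl3 window (chr10:75893148-75893447, plus strand) held an ERSE on the opposite strand that began at base -156 from the start site. The Syvn1 window (chr19:6046326-6046625, plus strand) held an ERSE on the gene's strand at -44. In Herpud1 (chr8:94386179-94386478, plus strand), an ERSE-II lay at -52 and an amino acid response core on the opposite strand at -112. Ube2j1 (chr4:33031130-33031429, plus strand) had a UPRE core on the opposite strand at -68. Sel1l (chr12:91849108-91849407, minus strand), Os9, Derl2 and Fam8a1 matched none of the 4 motifs. Over 32851 promoter windows of the same length, an ERSE was found in 0.119%, an ERSE-II in 0.0365%, a UPRE core in 0.676%, an amino acid response core in 3.97% and any of the 4 in 4.77%. A match is a string of letters, binding was not measured, and a link of the motifs to the changes below was not tested.

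In knockout beta cells, 8 of the 10 members rose and Ube2j1 did not pass the test. Sel1l, the gene targeted in these mice, fell. Derl3, a derlin, changed most by far at 35.3-fold, and Herpud1, Syvn1 and Derl1 followed at 1.54-fold to 1.73-fold. With edgeR (quasi-likelihood test, p-values adjusted by Benjamini-Hochberg over 15026 genes), 19.1% of all genes were called higher and 20.2% lower in knockout beta cells, and 8 higher of 10 members is read against that share. The members' median log2 change was 0.35, against 0.00 over all genes tested. The 9 called fell to 5 without knockout 1 and to 5 without knockout 2, where the lone knockout library is assumed to vary like the wild type pair, and the share of all genes called fell alike, from 39.2% to 19.5% and 15.2%. Os9, Erlec1, Derl2 and Fam8a1 were the members lost in both cases, with log2 changes close to those of the full test (Erlec1 0.37 and 0.44 against 0.39, Derl2 0.28 and 0.35 against 0.30), while Derl3, Herpud1, Syvn1, Derl1 and Sel1l stayed called.

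**Figure D1:**
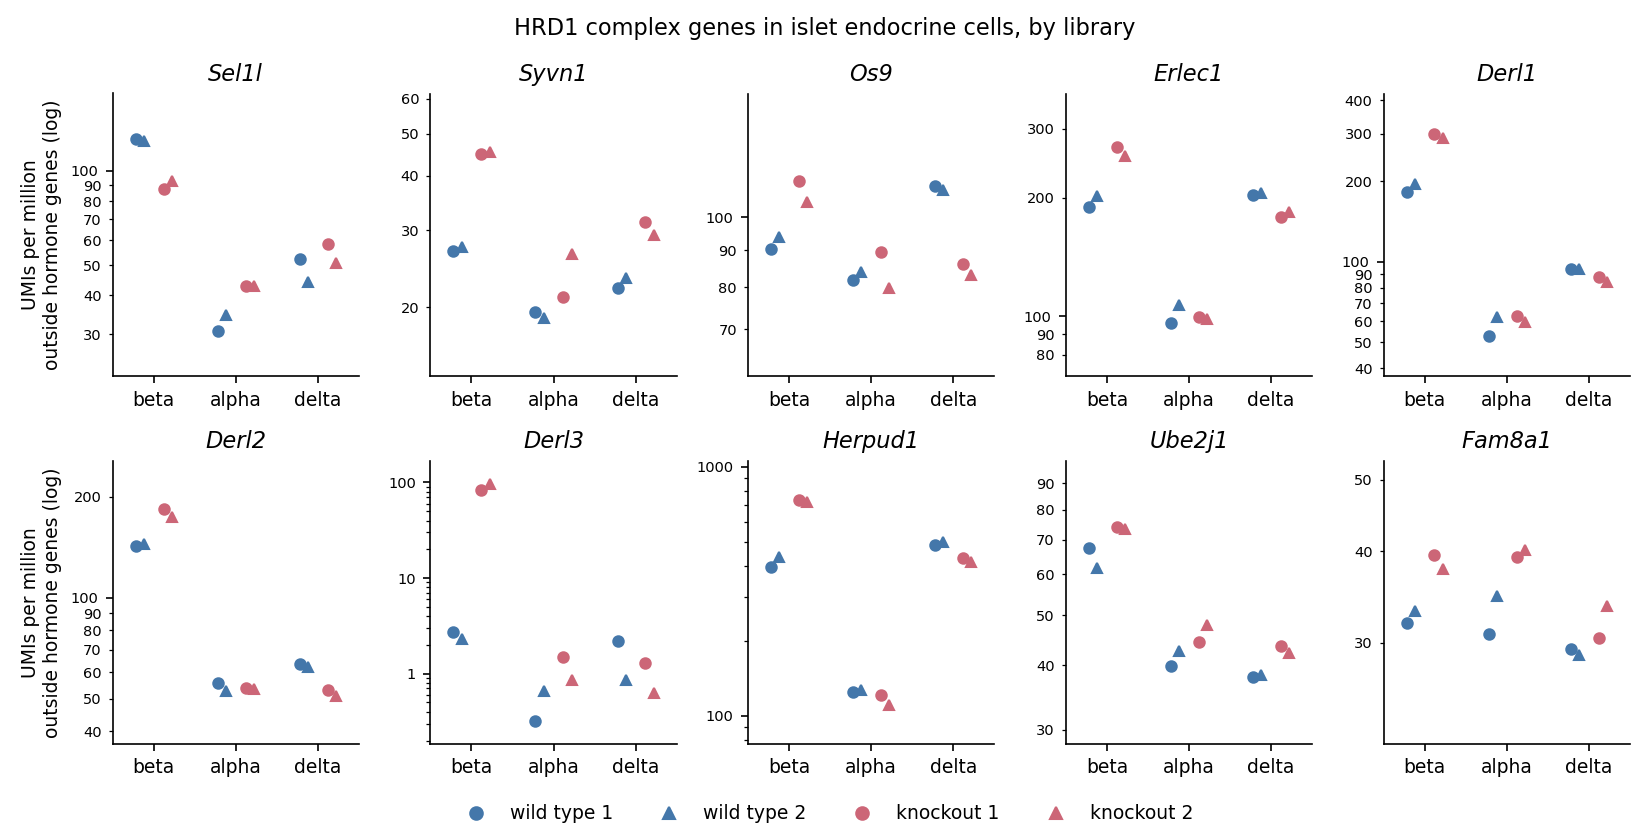
Level of each of the 10 genes in the beta, alpha and delta cells of each library, in CPM outside the hormone genes on a log axis (1 point per library, circles for replicate 1 and triangles for replicate 2). Derl3 is at 83.6 and 96.9 in knockout beta cells and at or under 2.70 in every other class and library shown, and Sel1l is the gene whose beta cell points lie lower in knockout.

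Sel1l (ENSMUSG00000020964, chr12:91806043-91849157, minus strand, in GENCODE on mm10), the adaptor and the gene targeted in the knockout mice, was at 126.6 and 124.7 CPM in wild type and at 87.3 and 92.7 in knockout beta cells. Both knockout libraries were below both wild type libraries, and transcripts of the gene's 3′ end were still counted in both. The log2 change was -0.51 (SE 0.0642; edgeR adjusted p = 0.00164). Its direction depends on the scale: per cell, Sel1l was at 1.62 and 1.67 UMIs in wild type and at 2.02 and 2.38 in knockout beta cells. Scaled to library size alone, the log2 change was 0.40, and scaled by cell number it was 0.42, in both cases below the shift of the median gene, which was 0.91 and 0.92. Those scalings moved the share of higher genes among all calls in beta cells from 48.6% to 97.8% and 97.7%.

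Syvn1 (ENSMUSG00000024807, chr19:6046576-6053712, plus strand), which encodes the ligase HRD1, was at 27.0 and 27.5 CPM in wild type beta cells and at 44.8 and 45.5 in knockout beta cells. The 2 groups lay far apart relative to the spread within each, with a log2 change of 0.70 (SE 0.0631; edgeR adjusted p = 5.3e-04). Adaptor and ligase therefore moved in opposite directions on this scale, the adaptor being the gene targeted in the knockout mice. The ratio of Sel1l to Syvn1 UMIs, which no scaling of the library changes, was 4.70 and 4.53 in wild type against 1.95 and 2.04 in knockout beta cells. In alpha cells the same ratio was 1.58, 1.84, 2.02 and 1.62, and in delta cells 2.37, 1.89, 1.87 and 1.74, so the knockout beta cell ratio lay within the range of the other endocrine cells. Since Syvn1 rose, the ratio mixes both changes. So does the share of Sel1l in the UMIs of the 10 members, which went from 10.1% and 9.46% to 4.52% and 4.90% while 8 of the others rose, whereas the mean level of Sel1l itself was 0.716 times that in wild type.

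**Figure D2:**
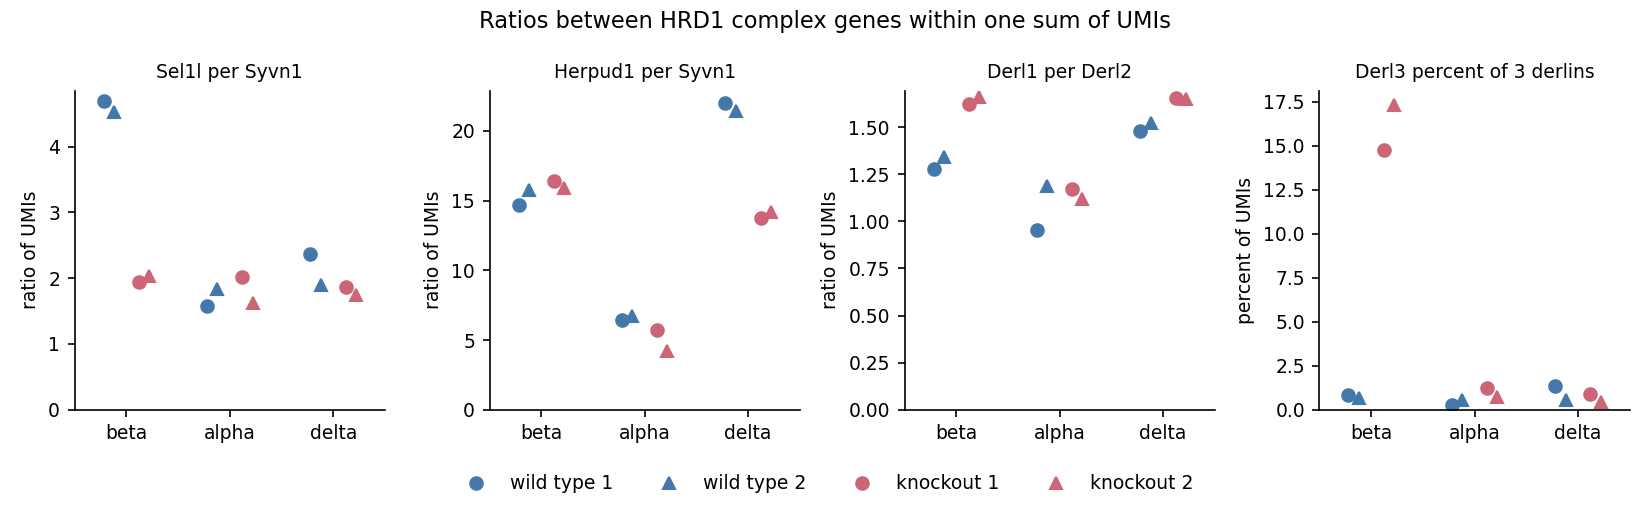
Ratios of UMIs between members within each sum of cells, 1 point per library, for beta, alpha and delta cells (vertical axes start at 0). In beta cells Sel1l per Syvn1 is 4.70 and 4.53 in wild type against 1.95 and 2.04 in knockout, and Derl3 rises from under 1% to 14.7% and 17.3% of the UMIs of the 3 derlins.

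The lectins changed less. Os9 was at 90.4 and 93.8 CPM in wild type and at 112.0 and 105.0 in knockout beta cells, a log2 change of 0.21 (SE 0.0690) whose edgeR adjusted p of 0.0482 was the closest to the threshold among the called members. With DESeq2 its adjusted p was 0.0515, and without wild type 1 it was 0.109. Erlec1, the other lectin, was at 189.8, 202.4, 269.1 and 255.1, again with no overlap of the groups (log2 change 0.39, SE 0.0770, edgeR adjusted p = 0.00796). The ratio of Os9 to Erlec1 UMIs in beta cells was 0.476 and 0.463 in wild type against 0.416 and 0.411 in knockout.

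The derlins all rose, and Derl3 (ENSMUSG00000009092, chr10:75893413-75895941, plus strand) rose most. It was at 2.70 and 2.32 CPM in wild type beta cells (122 and 108 UMIs in all) and at 83.6 and 96.9 in knockout beta cells (4614 and 3394 UMIs), a log2 change of 5.14 (SE 0.116; edgeR adjusted p = 1.4e-05), or 35.3-fold. Its exact 95% Poisson intervals, which cover counting error only, were 2.24 to 3.23 and 1.91 to 2.81 in wild type and 81.2 to 86.1 and 93.7 to 100.2 in knockout. Derl1 was at 181.4, 194.2, 299.2 and 289.4 (log2 change 0.62, SE 0.0766, edgeR adjusted p = 0.00145). Derl2 rose less, from 142.3 and 144.9 to 184.6 and 174.5 (log2 change 0.30, SE 0.0674, edgeR adjusted p = 0.0138). The makeup of the derlin transcripts differed accordingly, with Derl3 at 0.828% and 0.681% of their UMIs in wild type and at 14.7% and 17.3% in knockout beta cells. In this 3′ assay each molecule is counted once, so these ratios were not divided by transcript length, but capture can still differ between genes.

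Derl3 is known to be abundant in plasma and acinar cells, so the markers of those cells are given beside it. In beta cells the 6 acinar markers listed in the files summed to between 0.127 and 0.177 CPM in the 4 libraries, and the plasma cell genes Jchain and Mzb1 were at no more than 0.177 and 0.628. Igkc, an antibody light chain gene, was at 0.996, 1.23, 1.90 and 2.74, and it rose by 1.02 on the log2 scale (edgeR adjusted p = 0.0241). Cd79a, a B cell receptor gene, was at 45.4, 36.8, 10.8 and 16.3 and fell by 1.64 on the log2 scale (edgeR adjusted p = 0.00116), so the 5 B and plasma cell markers summed to less in knockout (13.2 and 19.8) than in wild type beta cells (47.0 and 38.7). Cd79a made up most of those sums and was at 0.393 to 3.69 in the cells outside the 3 gates, and without it the other 4 markers summed to 1.62 and 1.96 in wild type against 2.37 and 3.48 in knockout beta cells. The part of such cells in the Derl3 level was not tested. Ppy, the hormone of pancreatic polypeptide cells, moved with the genotype in beta cells, from 3856 and 3025 to 19537 and 12715 CPM, and its part in these results was not tested.

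Herpud1 (ENSMUSG00000031770, chr8:94386438-94395377, plus strand), which encodes a stress-induced scaffold of the complex, was at 396.5 and 434.4 CPM in wild type and at 737.3 and 722.0 in knockout beta cells. The log2 change was 0.79 (SE 0.0865; edgeR adjusted p = 0.00102), and the groups did not overlap. It kept pace with the ligase: the ratio of Herpud1 to Syvn1 UMIs was 14.7 and 15.8 in wild type against 16.4 and 15.9 in knockout beta cells. Fam8a1, the other HRD1-binding member, was at 31.9, 33.1, 39.5 and 37.8 (log2 change 0.23, SE 0.0670, edgeR adjusted p = 0.0359), and its adjusted p was 0.0994 with DESeq2. Ube2j1, the ubiquitin-conjugating enzyme, was at 67.4, 61.6, 73.9 and 73.5. Its groups did not overlap, but the log2 change of 0.17 (SE 0.0601) had an edgeR adjusted p of 0.0624 and was not called. Relative to the ligase, Ube2j1 was lower in knockout, at 1.65 and 1.62 UMIs per Syvn1 UMI against 2.50 and 2.24 in wild type.

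Counted per cell, more members were seen in knockout beta cells. The count rises with each member's own share of cells, so it does not show that members rise in the same cells. After each cell was thinned to 5000 UMIs outside the hormone genes, which left out 31 to 149 shallower beta cells a library, the mean number of members with a UMI was 3.86 and 3.98 in wild type against 4.77 and 4.77 in knockout beta cells. At least 5 members were seen in 32.5% and 34.4% of wild type and in 56.2% and 55.7% of knockout beta cells. In alpha cells the shares were 3.50%, 5.42%, 4.24% and 4.01%, and in delta cells 14.3%, 13.7%, 15.5% and 11.0%, with no separation of the genotypes. With 1 value per library and 2 libraries a genotype, these shares are given without a test.

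**Figure D3:**
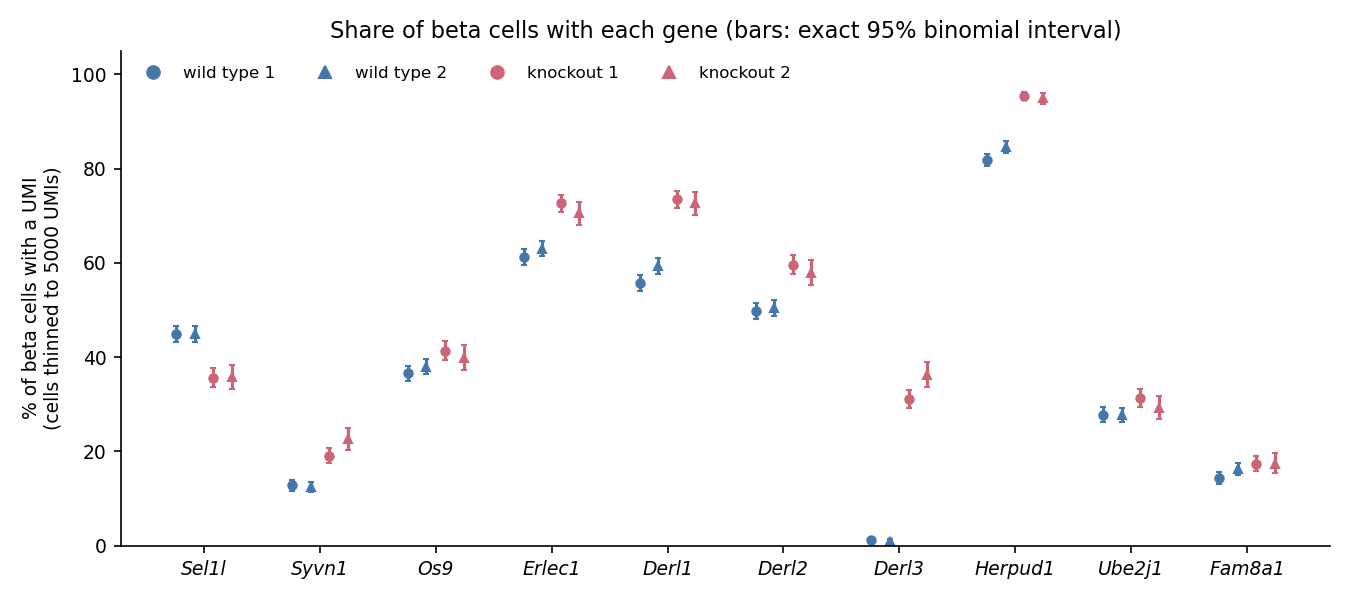
Share of beta cells with at least 1 UMI of each gene after thinning to 5000 UMIs outside the hormone genes, 1 point per library with exact 95% binomial intervals (counting error only). Derl3 is seen in 1.24% and 1.07% of wild type and in 31.1% and 36.2% of knockout beta cells, and Sel1l is seen in fewer knockout than wild type cells.

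Derl3 was seen in 42 of 3384 and 36 of 3378 thinned wild type beta cells and in 732 of 2350 and 482 of 1331 knockout beta cells, which is 1.24%, 1.07%, 31.1% and 36.2%. Without thinning the shares were 2.75%, 2.82%, 72.9% and 79.0%. In alpha cells, which set a background, thinned shares were 0.369%, 0.217%, 0.531% and, in knockout 2, 0 of 324 cells, which allows up to 0.926% of cells with a UMI at the thinned depth. Without thinning the alpha cell shares were 0.358%, 0.639%, 2.63% and 1.52%. Thinned delta cell shares were 1.17% (5 of 428 cells), 0.196% (1 of 510), 0.990% (3 of 303) and 0 of 228. The delta cell share of wild type 1 was thus close to its beta cell share. The median depth before thinning was 12156, 12559, 21814 and 24017 UMIs outside the hormone genes per beta cell, and 10216.5 in alpha cells of wild type 1 and 15847 in those of knockout 1. The Derl3 share was above the alpha cell share in both wild type libraries, where only 4 and 2 thinned alpha cells had a UMI. The exact 95% intervals, which cover counting error only and no spread between libraries, overlapped in both. In wild type 1 they were 0.896% to 1.67% in beta and 0.101% to 0.941% in alpha cells. In wild type 2 they were 0.748% to 1.47% and 0.0263% to 0.781%. In knockout beta cells the Derl3 share was far above the alpha cell share.

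Among knockout beta cells, those with a Derl3 UMI had somewhat more Herpud1 than those without. In thinned cells the mean Herpud1 level was 796 against 712 CPM in knockout 1 and 807 against 687 in knockout 2. Sel1l, Os9, Erlec1, Derl1 and Derl2 were also higher in both knockout libraries, and Ube2j1 and Fam8a1 in knockout 1 only. Syvn1 went the other way in both, at 41.0 against 43.8 and at 49.0 against 52.3. In wild type, with only 42 and 36 cells with a Derl3 UMI, Herpud1 was at 486 against 396 and at 422 against 437. Over the 45 pairs of members, correlations across the thinned cells of a library were weak in every library, with medians of 0.016, 0.014, 0.011 and 0.019 and a highest value of 0.193. In sparse counts such weak correlations are no finding.

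The change was also present in beta cells within a shared band of insulin share, a share that itself moved with the genotype. With insulin at 40 to 60% of a cell's UMIs, Derl3 was at 3.23 and 2.81 CPM in 383 and 229 wild type cells and at 94.97 and 111.4 in 1129 and 792 knockout cells. In the same band Herpud1 was at 337.0, 410.7, 769.3 and 738.4. The band took in 383 of 3533, 229 of 3473, 1129 of 2381 and 792 of 1365 beta cells, so few wild type cells. Its cells also differed in depth, with medians of 30779, 35476, 49989 and 55878 UMIs, against 46575, 49429, 43778 and 51101 over all beta cells. Whether the wild type cells of the band stand for wild type beta cells at large was not tested. A test in this band, chosen after the data were seen, called 9 members, 8 higher and 1 lower, where 15.9% of 13217 genes were called higher and 16.6% lower. There the log2 change was 5.14 for Derl3, 1.09 for Herpud1, 0.70 for Syvn1 and -0.38 for Sel1l, Ube2j1 was called (0.33, edgeR adjusted p = 0.0226) and Fam8a1 was not (0.19, edgeR adjusted p = 0.190). Within knockout beta cells, Derl3 was at 59.0, 77.1, 94.97 and 56.2 in knockout 1 and at 49.4, 82.6, 111.4 and 71.0 in knockout 2 as the insulin share went through 10 to 20%, 20 to 40%, 40 to 60% and 60 to 100%. Both libraries were highest at 40 to 60%, and no test was made of this order.

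**Figure D4:**
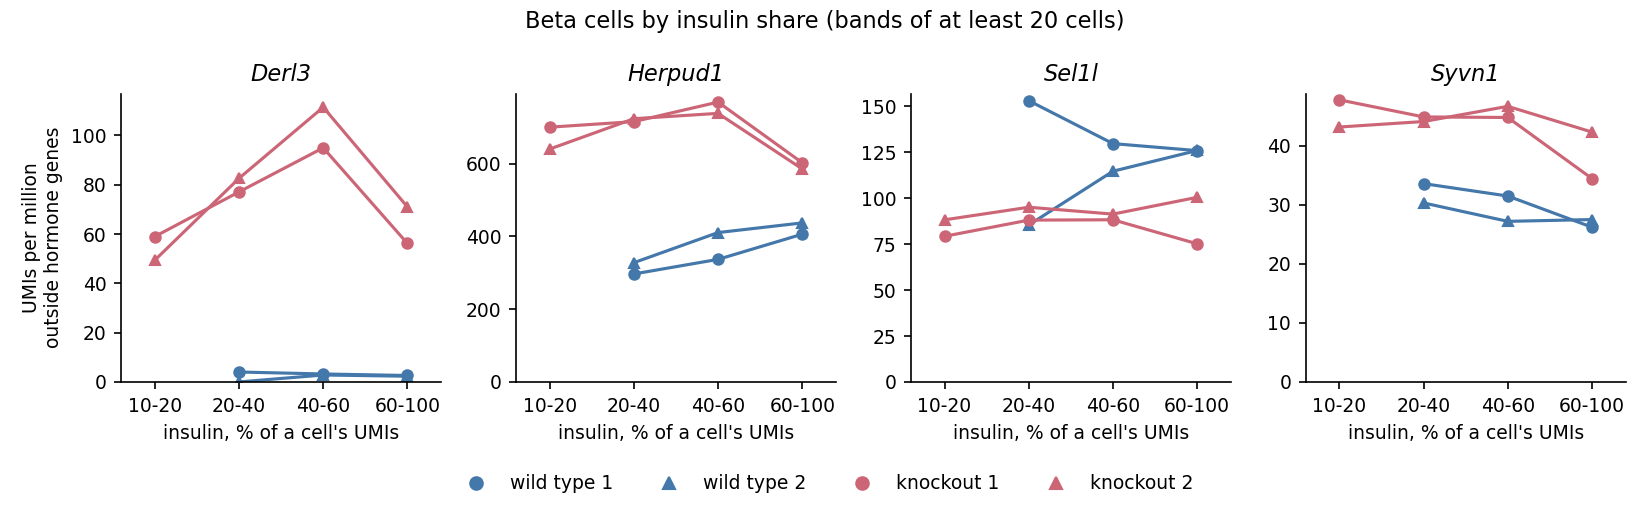
Levels of 4 members in beta cells split by insulin share of UMIs, in CPM outside the hormone genes, 1 line per library (bands with under 20 cells are not drawn, and vertical axes start at 0). In the 40 to 60% band Derl3 is at 94.97 and 111.4 in knockout against 3.23 and 2.81 in wild type, and the Herpud1 and Syvn1 lines of the genotypes do not cross.

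In alpha cells, which make glucagon and not insulin, 0 of the 10 members were called by edgeR's quasi-likelihood test, against 5.35% of 12830 genes called higher and 8.05% lower. DESeq2 also called 0, and at an unadjusted p under 0.05 there were 2, Sel1l and Herpud1. Sel1l was at 30.8, 34.7, 42.8 and 42.9 CPM in alpha cells, with a log2 difference of 0.28 (SE 0.0859; edgeR adjusted p = 0.0606). Herpud1 was at 125.1, 127.4, 121.3 and 110.7, a log2 difference of -0.22 (edgeR adjusted p = 0.0765). For Sel1l the knockout libraries were above, and for Herpud1 below, both wild type libraries, the reverse of beta cells for both genes. Derl3 rested on 4, 7, 20 and 5 UMIs in alpha cells and did not pass the test (log2 difference 1.24, SE 0.566, edgeR adjusted p = 0.174). The other members ranged from -0.15 (Erlec1) to 0.17 (Syvn1 and Fam8a1) on the log2 scale.

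The alpha cell differences depend on the scale. Under library size alone, which moved the median gene by 0.23 in alpha cells, Sel1l (0.49) and Fam8a1 (0.38) were called higher while Os9, Erlec1, Derl1 and Derl2 turned positive without a call. Sums scaled by cell number, with the median gene at 0.78, called all 10 higher, Herpud1 among them at 0.55. The share of higher genes among all calls went from 39.9% to 94.8% and 99.7% under these scalings. Relative to those medians, Herpud1 was below and Sel1l above the typical gene, as in the reported test.

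In delta cells 9 members passed the filter on low counts and 2 of them fell, against 2.30% of 11652 genes called higher and 4.89% lower. Os9, the lectin, was at 110.2 and 109.0 CPM in wild type and at 86.0 and 83.3 in knockout delta cells (log2 change -0.47, SE 0.0927, edgeR adjusted p = 0.0181). Herpud1, the scaffold, was at 486.4, 501.0, 430.6 and 414.0 (log2 change -0.33, SE 0.0734, edgeR adjusted p = 0.0263). Both genes changed in the direction opposite to that in beta cells, and neither group overlapped the other. Erlec1, Derl2 and Derl1 were lower at an unadjusted p under 0.05, with log2 differences of -0.27, -0.38 and -0.24, but were not called (edgeR adjusted p = 0.0630, 0.0563 and 0.146). Syvn1, at 22.1, 23.4, 31.3 and 29.2, was not called (log2 difference 0.31, edgeR adjusted p = 0.218). Derl3, with 8, 4, 5 and 2 UMIs, was not tested in delta cells.

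The 2 delta cell calls went to 0 without wild type 1, to 0 without wild type 2 and to 1 without knockout 2, where the calls over all genes went from 838 to 434, 266 and 865. With any 1 library left out, the log2 change stayed between -0.50 and -0.45 for Os9 and between -0.36 and -0.30 for Herpud1. The direction depended on the scale. Library size alone, with the median gene at 0.17, gave 0 member calls. Scaling by cell number, with the median gene at 0.71, reversed Os9 to 0.24 and Herpud1 to 0.39, both below that median. Of all genes, 10.2% were called under library size alone and 79.0% by cell number. The share of higher genes among all delta cell calls moved from 32.0% to 87.9% and 99.7%. Restricting the class to cells with Sst over Ppy, a choice made after the data were seen, left both calls (-0.48 for Os9 and -0.33 for Herpud1).

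**Figure D5:**
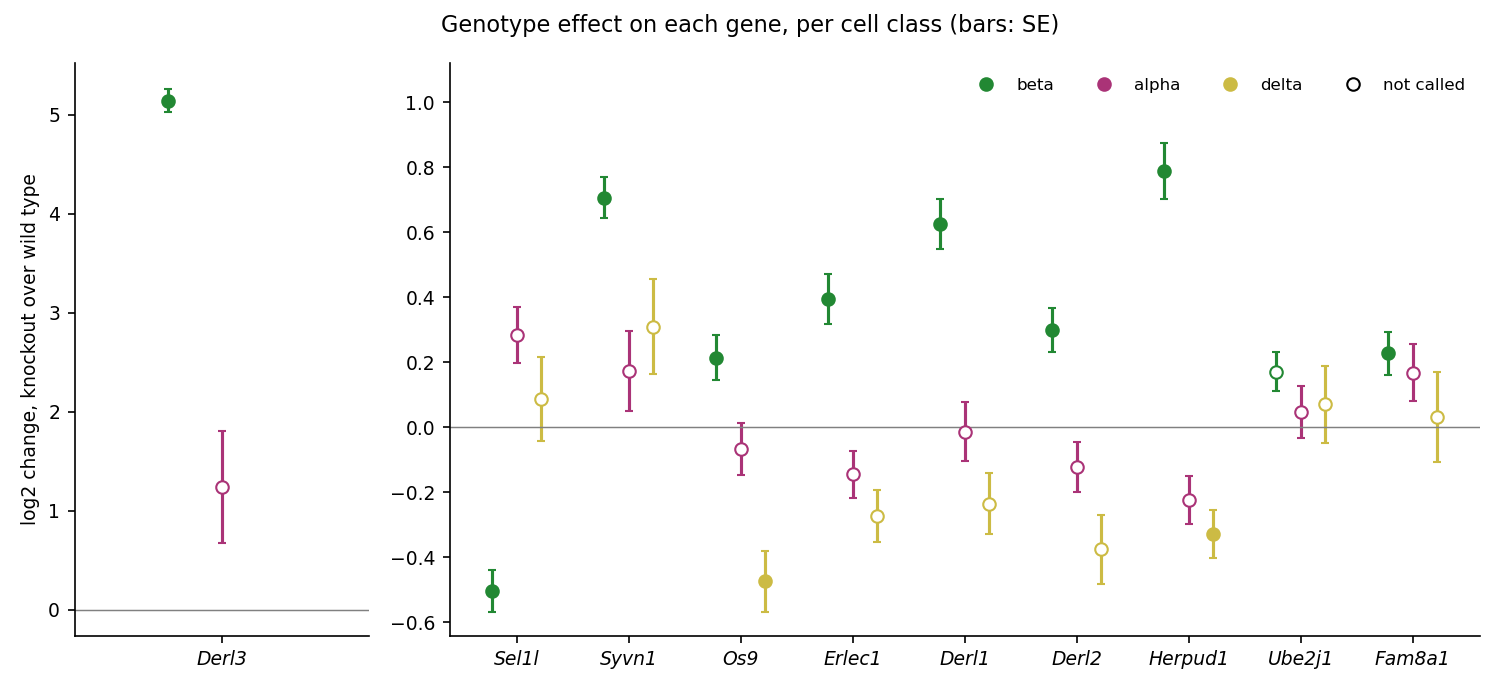
Log2 change of each gene, knockout over wild type, in beta, alpha and delta cells, with bars for the SE (filled points passed edgeR's adjusted p of 0.05, open points did not). Derl3 has its own axis and no delta cell point because it failed the filter on low counts there, and in beta cells 8 filled points lie above 0 and Sel1l, at -0.51, below it.

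The difference between the beta cell effect and that in the other classes was tested by an interaction term in a fit of all 12 sums that kept each library as a block. Against alpha cells the effect was higher for 7 members and lower for 1, where 12.3% of 14291 genes were called higher and 11.9% lower. The difference of the log2 effects was 3.81 for Derl3 (SE 0.677, edgeR adjusted p = 0.00107), 1.04 for Herpud1 (SE 0.0816, edgeR adjusted p = 1.5e-06) and -0.77 for Sel1l (SE 0.108, edgeR adjusted p = 1.6e-04). Derl1, Erlec1, Syvn1, Derl2 and Os9 lay between 0.31 and 0.66. Ube2j1 (0.15) and Fam8a1 (0.082) were not called.

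Against delta cells the effect was higher for 6 members and lower for 1, where 9.08% of genes were called higher and 8.11% lower. The difference was 5.78 for Derl3 (SE 0.773, edgeR adjusted p = 1.7e-04), resting on few delta cell UMIs, 1.14 for Herpud1 (SE 0.0784) and 0.88 for Derl1 (SE 0.0933). Os9, Derl2 and Erlec1 were at 0.71, 0.69 and 0.69, and Syvn1, at 0.41, was not called (edgeR adjusted p = 0.0877). The difference for Sel1l of -0.58 (SE 0.131, edgeR adjusted p = 0.00701) reversed to 0.15 under library size alone, where the median gene shifted by 0.71. It was -0.46 without wild type 2 and -0.43 without knockout 1, neither called (edgeR adjusted p = 0.0610 and 0.112). Library size alone also took the Sel1l difference against alpha cells to -0.093, which was not called (edgeR adjusted p = 0.518).

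Wild type cells already differed by class. Against alpha cells, wild type beta cells had 8 members higher and none lower, where 32.1% of 14291 genes were called higher and 30.0% lower. The largest differences were 2.22 for Derl3 (SE 0.368), 1.77 for Sel1l (SE 0.0731), 1.55 for Herpud1 (SE 0.0566), 1.53 for Derl1 (SE 0.0567) and 1.24 for Derl2 (SE 0.0557) on the log2 scale. Erlec1, Ube2j1 and Syvn1 followed at 0.78, 0.48 and 0.33, and Os9 and Fam8a1 were not called. Against delta cells, 4 members were higher in wild type beta cells (Sel1l 1.40, Derl2 1.20, Derl1 1.01 and Ube2j1 0.77) and 2 were lower (Os9 and Herpud1, both -0.24), where 29.0% of genes were called higher and 24.8% lower. Derl3, Syvn1, Erlec1 and Fam8a1 were not called against delta cells. Library size alone, in which the insulin UMIs of beta cells count in the total, moved the median gene by -0.92 and -1.33. It gave 5 members higher and 5 lower against alpha cells, and 0 higher and 7 lower against delta cells. Of all genes it called 8.87% higher and 74.9% lower against alpha cells, and 3.90% and 83.1% against delta cells.

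By level, Sel1l was ordered beta, delta, alpha among the 3 endocrine classes in both genotypes, but its beta cell level was 3.84 times that in wild type alpha cells and 2.10 times that in knockout alpha cells. The adaptor thus differed less between beta and alpha cells in knockout islets, and both sides moved. Its mean went from 125.7 CPM in wild type to 90.0 in knockout beta cells, where it is the gene targeted. In alpha cells the mean went from 32.7 to 42.8. Derl1 was at 53.1, 62.4, 62.9 and 59.6 CPM in alpha cells and at 93.8, 94.4, 87.6 and 83.9 in delta cells. For Derl1 no alpha cell value reached any delta cell value. Derl2 was at 55.6, 52.5, 53.8 and 53.3 in alpha and at 63.6, 62.1, 52.9 and 50.8 in delta cells, so that the delta cell mean was above the alpha cell mean in wild type and below it in knockout. Herpud1 had its highest wild type level in delta cells and its highest knockout level in beta cells, and Os9 showed the same exchange of first place. Erlec1 did so by its means, but its wild type delta cells (203.5 and 205.5) lay close to its wild type beta cells (189.8 and 202.4). That difference was not called, and the order of classes in knockout was not tested for any member. Fam8a1 was the flattest gene over the 3 classes, with its highest mean 1.12 times its lowest in wild type and 1.24 times in knockout cells, and its alpha and beta cell ranges overlapped.

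Cells outside the 3 gates held Derl3 at 0.197 and 0.701 CPM in wild type and at 13.3 and 6.21 in knockout. Beta markers summed to 4063 and 2707 in the wild type and to 21641 and 11485 in the knockout cells of this remainder. Iapp made up most of those sums, at 3996, 2634, 21457 and 11375. Mafa had a lower mean in knockout (3.39 against 5.29), but its genotypes overlapped, at 5.31, 5.26, 5.48 and 1.29. Pdx1, Nkx6-1, Slc2a2, G6pc2 and Ucn3 had higher means in knockout. Of the cells in this remainder, 15, 8, 75 and 23 had insulin at 5 to 10%. Just inside the gate, 7, 7, 183 and 84 beta cells had insulin at 10 to 20%. The part of such cells in the Derl3 level outside the gates was not tested.

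The genes that feed substrates to the complex moved with it in beta cells. Of 14 genes for substrate delivery and glycan trimming, 12 rose, none fell, and Man1b1 and Dnajc10 were not called, with a median log2 change of 0.72. Over all genes in beta cells, 19.1% were called higher and 20.2% lower. Uggt1, which returns glucose to unfolded glycoproteins, was at 90.2 and 86.4 CPM in wild type and at 150.3 and 152.3 in knockout beta cells (log2 change 0.75). Edem2, which trims mannose from substrates, went from 73.5 and 83.6 to 164.8 and 153.7 (0.99). Dnajc3, an ER cochaperone, rose by 1.05 and Txndc11, an ER thioredoxin, by 0.69 on the log2 scale. In alpha cells 0 of these 14 were called (edgeR's quasi-likelihood test), and in delta cells 7 fell and 7 were not called. Over all genes, 5.35% were called higher and 8.05% lower in alpha cells, and 2.30% and 4.89% in delta cells. Edem2 was among those that fell in delta cells, at 105.6, 117.8, 77.2 and 73.1 (-0.68, edgeR adjusted p = 0.00596).

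Genes for extraction and deubiquitination, which act after the ligase, were called in beta cells no more often than genes at large. Of 17 such genes, 5 rose, 1 fell and 11 were not called, with a median log2 change of -0.02. Their share called was 35.3%, against 39.2% of all genes. Aup1, which recruits a ubiquitin-conjugating enzyme, rose by 0.51, Svip, an inhibitor of extraction, by 0.31, and Ufd1, a cofactor of the p97 ATPase, by 0.23 on the log2 scale. Vcp, which encodes p97 and is named outside the rule after its values were seen, was at 308.8, 282.3, 290.5 and 293.9 and was not called. Among 19 other ER ligases, conjugating enzymes and partners, 10 rose, 2 fell and 7 were not called, a share called of 63.2%. Rnf5 (0.53), Tmem129 (0.48) and Rnf145 (0.44) are ER ligases that rose, and Erlin1, a partner of another ligase, fell by 0.48.

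Regulators of the unfolded protein response were mixed. Of 11, 5 rose, 1 fell and 5 were not called in beta cells, a share called of 54.5% against 39.2% of all genes. Eif2ak3, which encodes the sensor PERK, was at 27.9, 28.5, 51.6 and 48.1 CPM (log2 change 0.80), and Ern1, which encodes the sensor IRE1, was at 73.5, 69.4, 115.1 and 117.4 (0.68). Creb3l2, a membrane-bound transcription factor, rose by 0.51. Atf4, a translation-controlled factor of the PERK branch, was at 439.7, 454.5, 334.7 and 326.7 and fell by 0.46, and it fell by 0.49 in alpha cells too (edgeR adjusted p = 0.00981). Xbp1, chosen here after its values were seen, was at 322.4, 336.7, 321.9 and 325.5 and was not called, and a 3′ count does not separate its spliced from its unspliced form.

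Across the 12 sums of 3 classes and 4 libraries, some members had near neighbours in pattern among 6719 other genes. The 12 points share libraries and depth, so the correlations of log2 levels are a description. Herpud1 and Erlec1 were each other's closest gene (r = 0.99), followed for both by Dnajb9, an ER cochaperone, and Lmbrd1. Sel1l was closest to Prom1 (0.99), Ero1l, an ER oxidase, and Gusb. Derl3 was closest to 2900076A07Rik (0.98), Stard5 and Cacfd1, and Syvn1 to Trip11 (0.98), Slc30a5 and Zfp652. Derl1 was closest to Cmas (0.99), Gtpbp2 and BC003331, and Derl2 to Cox6a2 (0.99), Mfsd11 and Nudt7. Os9 had Ddost (0.91), 1810030O07Rik and Pdia6, and Ube2j1 had Tbcd (0.99), mt-Co1 and Agap1. Fam8a1 was closest to Nfasc (0.95), Arap1 and Sec24a. Prom1, the nearest gene to Sel1l, also fell in knockout beta cells, by 0.47 on the log2 scale (edgeR adjusted p = 0.00353).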

How the data were processed

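The authors deposited, for each of the 4 libraries, a table of UMI counts over 19074 genes, made with Cell Ranger 3.0.0, mm10 and Seurat 2.3.4 per the submitters' processing notes; their cell filters and gene annotation are not given in the sources used here. No deposited cell had fewer than 501 genes or over 9.96% mitochondrial UMIs, and no further cell filter was set. Low mitochondrial content and the overnight culture bound which cells could be seen. Per library, the top Scrublet scores at 0.8% per 1000 cells were removed as doublets. Cells were gated by hormone share; the 7 cells that met both the alpha and the delta gate were left out.

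UMIs were summed per class and library and tested over all genes with edgeR 4.0.16 (TMM, filterByExpr, quasi-likelihood test, p under 0.05 after Benjamini-Hochberg adjustment; R 4.3.3), and changes are knockout over wild type. Interactions and class contrasts used all 12 sums with the library as a block. Thinning drew 5000 UMIs per cell. On simulated data with 200 genes changed by 1 on the log2 scale, 97% were recovered in beta, 90% in alpha and 82% in delta cells, 71.5% for beta minus alpha and 63.5% for beta minus delta effects, with 6.28%, 4.76%, 5.20%, 0.694% and 5.22% false calls. The simulation gave every gene the same spread beyond counting error and balanced changes up and down. It drew the changed genes from those with a mean of at least 20 counts in delta cells. Its rates therefore do not give the chance of a call for smaller changes or for genes with few UMIs. Coordinates were matched by symbol to GENCODE vM21.

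Named genes are the 10 members, from each pathway list the called genes with the smallest beta cell p (at most 4), and the 3 genes nearest each member in pattern among genes with a mean of at least 20 CPM. 1 gene that this rule names is not reported here. The members and lists were chosen with earlier results of these data known. Alternatives were RLE normalization, library size only, scaling by cell number, no hormone genes, other filters, DESeq2 1.42.0, no doublet removal, other gates, the replicate block and leaving out each library. Python 3.11.15, scanpy 1.11.5, NumPy 2.4.6, SciPy 1.17.1, pandas 2.3.3 and matplotlib 3.10.9 were used.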

Additional observations from a re-analysis of the deposited data

Results flagged for a closer look

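The results a reader may want to look at again are the genotype effects that differed between cell classes by the interaction test of edgeR (quasi-likelihood test, Benjamini-Hochberg adjusted p under 0.05). Between beta and alpha cells, the difference of log2 effects was 3.81 for Derl3, 1.04 for Herpud1, 0.66 for Derl1, 0.56 for Erlec1, 0.56 for Syvn1, 0.45 for Derl2, 0.31 for Os9 and -0.77 for Sel1l. Between beta and delta cells it was 5.78 for Derl3, 1.14 for Herpud1, 0.88 for Derl1, 0.71 for Os9, 0.69 for Derl2, 0.69 for Erlec1 and -0.58 for Sel1l. Sel1l, the gene targeted in knockout beta cells, had the opposite sign in both comparisons, which the design cannot set apart from the targeting itself.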

How the results depend on the processing

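With 2 libraries a genotype and no residual check beyond their spread, counts of calls are the least stable values. The number of members called in beta cells ran from 5 to 9 when 1 library was left out, in alpha cells it was 0 each time (only 11 and 36 genes in all were called there without knockout 1 and knockout 2, against 1719, so a count of 0 members carries no weight there), and in delta cells it ran from 0 to 2. Leaving out a library gave 6 to 8 members for the beta minus alpha effect, 6 to 7 for beta minus delta, 7 to 9 for wild type beta against alpha and 4 to 7 for wild type beta against delta. Alpha cells gave 2 member calls under library size alone, 10 by cell number, 2 without a filter on low counts and 1 without doublet removal. The share of all genes called in alpha cells was then 26.4%, 86.0%, 15.5% and 13.7%. Delta cells gave 0, 7 and 4 under the first 3 of these settings, where 10.2%, 79.0% and 9.77% of all genes were called. By cell number 10 members differed between wild type beta and delta cells, as did 74.4% of all genes. The replicate block gave 8 calls in beta, 0 in alpha and 2 in delta cells and 6244, 1715 and 739 calls over all genes against 5895, 1719 and 838; same-numbered libraries correlated at 0.0996, -0.0716 and -0.0297 in their deviations, and the labels do not say that numbers pair libraries. The cause of each change was not tested.

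Directions reversed as follows. Under library size alone: Sel1l 0.40 in beta cells; Os9 0.14, Erlec1 0.068, Derl1 0.20 and Derl2 0.089 in alpha cells; the Sel1l beta minus delta effect 0.15; in wild type beta minus alpha, Syvn1 -0.60, Erlec1 -0.16 and Ube2j1 -0.45; in wild type beta minus delta, Syvn1 -1.09, Derl1 -0.35, Derl2 -0.16, Derl3 -0.55, Ube2j1 -0.59 and Fam8a1 -1.19. By cell number: Sel1l 0.42 in beta; Os9 0.70, Erlec1 0.62, Derl1 0.75, Derl2 0.65 and Herpud1 0.55 in alpha; Os9 0.24, Erlec1 0.44, Derl1 0.48, Derl2 0.34 and Herpud1 0.39 in delta; Os9 0.37 and Fam8a1 0.21 in wild type beta minus alpha; Os9 0.36, Erlec1 0.55 and Herpud1 0.36 in wild type beta minus delta. Uncalled values near 0 also changed sign. Derl1 in alpha cells was 0.0049 with no doublet removal, Sel1l and Fam8a1 in delta cells were -0.000602 and -0.26 with stricter gates, and Os9 in wild type beta minus alpha was 0.011 with no filter. When 1 library was left out, the values ran from -0.20 to 0.0066 for Os9 and from -0.12 to 0.095 for Derl1 in alpha cells (0.021 without knockout 2), from -0.034 to 0.22 for Sel1l (-0.020 without knockout 1) and from -0.042 to 0.11 for Fam8a1 in delta cells, from -0.064 to 0.0045 for Os9 in wild type beta minus alpha, and from -0.098 to 0.022 for Erlec1 in wild type beta minus delta. Derl3, Herpud1, Syvn1 and Derl1 kept both direction and call in beta cells under all 16 alternatives. The insulin band and the Sst over Ppy restriction were added after the data were seen.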
